A study of Mus musculus with 2 samples.

Results

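The genes described here are 8 whose loss of function gives renal cysts in people or in mice: Pkd1, Pkd2, Pkhd1, Invs, Ift88, Bicc1, Glis2 and Glis3. They were taken by name from a given list, not by any measured value, and are 8 of the 21938 protein-coding genes of the annotation. The chromatin was assayed by DNase-seq, in which the enzyme DNase I cuts accessible DNA in nuclei and the cut ends are sequenced. The tissue was whole kidney of 25-day-old male B6CASTF1/J mice, the F1 hybrid of a C57BL/6J and a CAST/EiJ parent, and neither a treatment nor an engineered allele is named. There was 1 group of 2 libraries, replicate 1 and replicate 2, which carry different biosample and animal numbers but the same donor code. No group could be set against another and no test between animals was possible, so each value is given per library, beside the same value over all protein-coding genes.

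Several products of these genes act at the primary cilium, the antenna-like organelle on the apical face of tubule cells. Polycystin-1 (Pkd1) and polycystin-2 (Pkd2) form a receptor and channel complex, and fibrocystin (Pkhd1) is a large membrane protein of the cilium and of the collecting duct. Inversin (Invs) marks a compartment at the base of the cilium, Ift88 carries cargo along it, Bicc1 binds messenger RNAs, and Glis2 and Glis3 are zinc finger transcription factors. RFX transcription factors bind the promoters of many ciliary genes.

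A pair of promoter sequences is shown because each held footprints that recurred in both libraries, at Ift88 over a match of the RFX motif. A footprint is a short stretch inside an accessible site that is cut less than its surroundings. Each sequence is the part of the promoter peak common to both libraries, up to 50 bases past the start of the gene, in GRCm38.p6 (mm10) and on the strand of the gene. Capitals mark the 34 bases in footprints of both libraries at Pkhd1 and the motif match at Ift88.
Pkhd1 promoter, chr1:20618015-20618160, minus strand: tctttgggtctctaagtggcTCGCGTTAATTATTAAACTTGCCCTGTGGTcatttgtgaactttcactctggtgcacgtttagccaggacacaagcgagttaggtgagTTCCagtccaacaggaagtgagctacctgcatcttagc
Ift88 promoter, chr14:57423961-57424111, plus strand: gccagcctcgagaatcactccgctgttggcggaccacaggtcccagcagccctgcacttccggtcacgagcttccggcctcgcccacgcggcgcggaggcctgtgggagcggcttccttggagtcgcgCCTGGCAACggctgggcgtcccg
The Ift88 match is the RFX motif GTTGCCNNG on the opposite strand, centred 31 bp inside the gene. Over 20150 promoters in RefSeq (GRCm38.p6), searched on both strands over 300 bases each, the RFX motif was in 1033 (5.13%).

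The libraries held 125393 and 177001 accessible sites (peaks) in replicate 1 and replicate 2, in the looser of the deposited peak lists, and 237471 and 493495 footprints. Read depth is unknown. The low peak heights rise in even steps, which were 1.72 times as large in replicate 1. Of 14 kidney cell markers, 12 had a promoter peak in both libraries, among them megalin (Lrp2, heights 6.93 and 4.53) and the sodium channel subunit Scnn1g (6.07 and 5.45), while the podocyte gene Nphs1 and the collecting duct gene Aqp2 had one in replicate 2 only (0.442 and 0.462). Of 6 markers of immune cells (Ptprc and Cd74) or other organs, Ptprc, Gad1, Alb and Myh6 had none in either library. Cela1 (3.09 and 2.92) and Cd74 (1.14 and 1.30) had one in both, but the highest Cela1 peak lay 9150 bp from the start of the gene, at an internal start. In whole tissue, fewer cells with an open site and less opening per cell cannot be told apart.

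All 8 cystic disease genes had an accessible promoter in both libraries. A promoter peak was a peak within 500 bp of any annotated transcription start, a state that 65.3% of the 21938 protein-coding genes shared. A footprint lay in a promoter peak of all 8 in both libraries, against 62.8% of all genes. Promoter height, the height of the highest such peak in the authors' signal, differed widely among the 8: it was highest at Pkd1 and, by the mean of the libraries, lowest at Bicc1 and Pkhd1. The median over the 8 genes was 5.98 in replicate 1 and 4.63 in replicate 2, against 7.49 and 7.01 over the 14329 genes with a promoter peak in both.

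**Figure D1:**
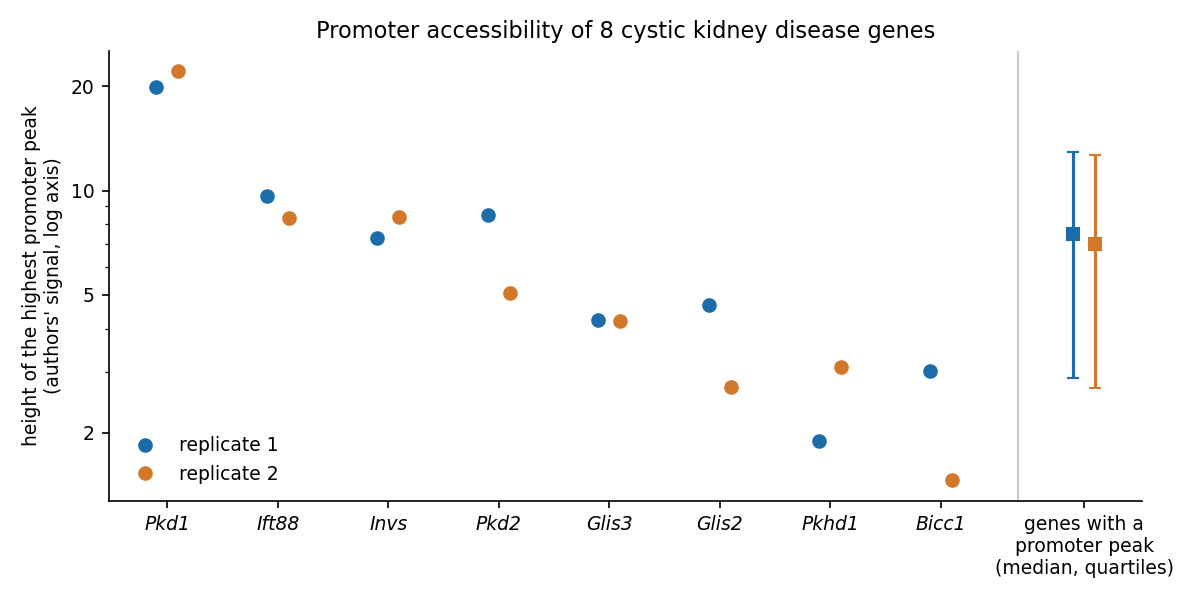
Height of the highest promoter peak (authors' signal, log axis) of each of the 8 genes in replicate 1 (blue) and replicate 2 (orange), with the median and quartiles of the 14329 protein-coding genes that had a promoter peak in both libraries at the right. Pkd1 lies above the upper quartile in both libraries, and Pkhd1 in replicate 1 and Bicc1 in replicate 2 lie below the lower quartile.

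Pkd1, the gene most often mutated in dominant polycystic kidney disease (ENSMUSG00000032855.6, chromosome 17, 24549834 to 24596508, plus strand), had promoter heights of 19.9 and 22.1 (SD 1.55, n = 2). They stood at percentiles 93.4 and 95.2 among genes with a promoter peak in the same library. Pkd2, its channel partner (ENSMUSG00000034462.9, chromosome 5, 104459450 to 104505819, plus strand), had 8.53 and 5.05, a mean of 6.79 ± 2.46 (SD, n = 2), at percentiles 55.8 and 41.9. The Pkd1 values thus lay above those of Pkd2 in each library, with no overlap between the genes.

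Pkhd1, mutated in recessive polycystic kidney disease (ENSMUSG00000043760.16, chromosome 1, 20057779 to 20618064, minus strand), had promoter heights of 1.89 and 3.09, a mean of 2.49 ± 0.853 (SD, n = 2), at percentiles 19.8 and 30.6. Invs (ENSMUSG00000028344.12, chromosome 4, 48279760 to 48431954, plus strand) had 7.29 and 8.38, a mean of 7.83 ± 0.768, at percentiles 49.6 and 58.5. Ift88 (ENSMUSG00000040040.16, chromosome 14, 57424062 to 57517936, plus strand) had 9.63 and 8.34, a mean of 8.98 ± 0.916, at percentiles 61.0 and 58.3. Both ciliary genes therefore sat near the middle of the genes with a promoter peak, and Pkhd1 was below them in both libraries. The start of Invs lies 202 bp from that of Erp44, a gene read in the other direction, so its promoter peak counts for both.

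Bicc1 (ENSMUSG00000014329.14, chromosome 10, 70922832 to 71159700, minus strand) had 3.02 and 1.46, a mean of 2.24 ± 1.10 (SD, n = 2), at percentiles 26.9 and 18.9. Glis2 (ENSMUSG00000014303.13, chromosome 16, 4594713 to 4624924, plus strand) had 4.67 and 2.71, a mean of 3.69 ± 1.38. Glis3 (ENSMUSG00000052942.13, chromosome 19, 28258851 to 28680077, minus strand) had 4.23 and 4.20, a mean of 4.21 ± 0.0231. The RNA-binding gene and both zinc finger genes were thus in the lower part of the range, with the Glis genes at percentiles 28.1 to 37.0.

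The order of the genes by mean height was Pkd1, Ift88, Invs, Pkd2, Glis3, Glis2, Pkhd1 and Bicc1, but most neighbours were closer than their spread. The ranges of Ift88 and Invs overlapped, those of Invs and Pkd2 did too, and Glis3 lay inside the range of Glis2. The ranges of Glis2, Pkhd1 and Bicc1 overlapped each other as well. Pkd1 stood clear of Ift88, and Pkd2 stood clear of Glis3. The log2 ratio of replicate 2 to replicate 1 was -1.05 for Bicc1, -0.78 for Glis2, -0.76 for Pkd2 and 0.71 for Pkhd1, and between -0.21 and 0.20 for the other 4 genes. Over all genes with a promoter peak in both libraries its median was -0.05, with an SD of 0.46.

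Start sites added little to these values. Pkd1 has a pair of annotated starts 0.116 kb apart, both within 500 bp of its highest promoter peak. That peak covers both starts in replicate 1 and only the first in replicate 2. Bicc1 has a pair 0.01 kb apart that also share a peak within 500 bp. An internal start of Bicc1, 12.8 kb into the gene, had no peak in replicate 1 and a peak of 0.522 in replicate 2. The other 6 genes have 1 annotated start each, which carried the promoter peak already given.

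The promoters differed in how many footprints they held and in how many recurred. The promoter peaks of Pkd1 held 9 footprints in replicate 1 and 5 in replicate 2, and 4 from each library overlapped near the start of the gene. The other 5 of replicate 1 also overlapped footprints of replicate 2, but outside its highest promoter peak, which was called over 180 bp against 360 bp in replicate 1. Pkd2 had 4 and 4, Pkhd1 2 and 4, Ift88 8 and 5, Bicc1 6 and 4, Glis2 10 and 10, and Glis3 4 and 6. Invs had 8 and 2, but its promoter peak was called over 360 bp in replicate 1 and only 80 bp in replicate 2. The medians over the 8 genes were 7 and 4.5, against 4 and 6 over the 14329 genes. Replicate 1 thus had the more footprints at 4 of the 8 promoters and the fewer at 2, although replicate 2 held more footprints in all.

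The highest promoter peak of the 8 genes, that of Pkd1, is shown because overlapping footprints of both libraries covered 72 of its 140 common bases. Capitals mark those bases (GRCm38.p6), and the 4 runs of capitals are the 4 footprint pairs.
Pkd1 promoter peak, chr17:24549741-24549880, plus strand: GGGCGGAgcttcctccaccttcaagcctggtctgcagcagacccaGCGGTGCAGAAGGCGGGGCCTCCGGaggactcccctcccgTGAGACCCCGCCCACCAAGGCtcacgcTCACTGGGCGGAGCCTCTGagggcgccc

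**Figure D2:**
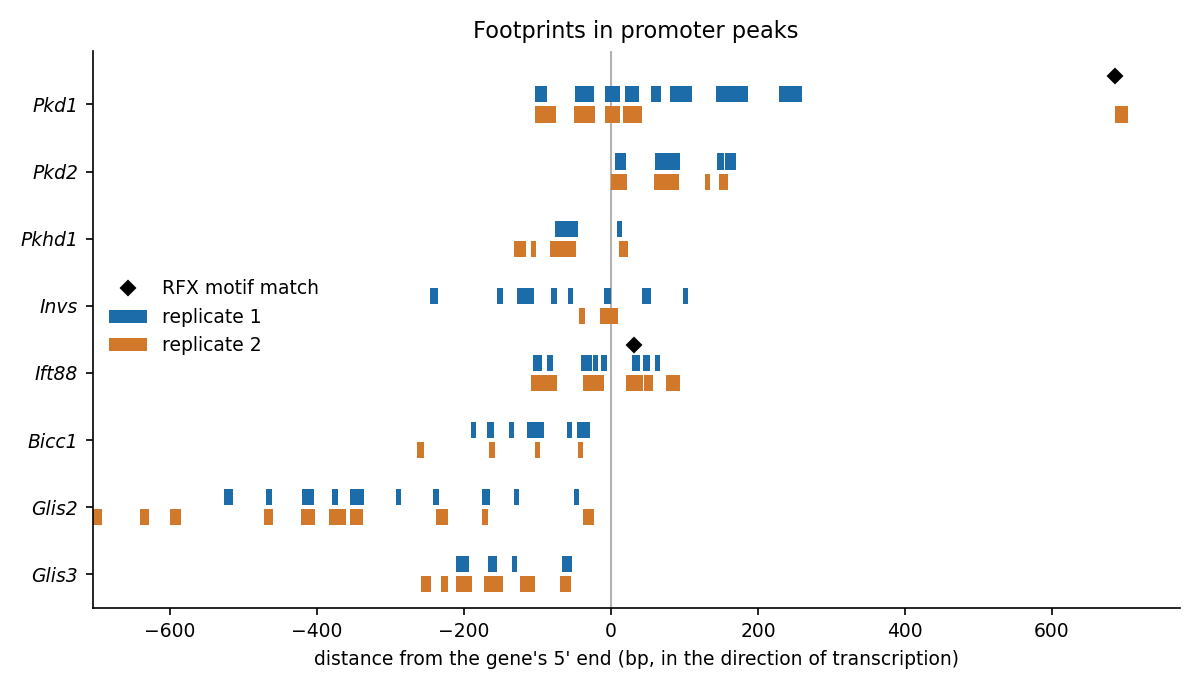
Footprints in the promoter peaks of the 8 genes by distance from the start of the gene (bp, in the direction of transcription), drawn to width for replicate 1 (blue) and replicate 2 (orange), with matches of the RFX motif (diamonds). The diamond at Ift88 stands over a footprint of both libraries, and the diamond at Pkd1 stands over a footprint of replicate 2 only.

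At Pkhd1 the widest footprint of the promoter recurred, with 31 bp in replicate 1 (chromosome 1, 20618110 to 20618140) and 36 bp in replicate 2 (20618111 to 20618146). It is the longer run of capitals in the Pkhd1 sequence. At Ift88 the RFX match (chromosome 14, 57424089 to 57424097) overlapped a footprint of 10 bp in replicate 1 and one of 22 bp in replicate 2. The ETS motif CCGGAAGT, bound by a broad family of activators, also matched the Ift88 promoter on the opposite strand, centred at -42 bp, and overlapped a footprint in replicate 1 only. That motif was in 5.35% of RefSeq promoters.

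RFX matches also lay in peaks just inside Pkd1 and Glis3. They are shown for the comparison with Ift88, with the match in capitals (GRCm38.p6, strand of the gene).
Pkd1 first intron, chr17:24550421-24550620, plus strand: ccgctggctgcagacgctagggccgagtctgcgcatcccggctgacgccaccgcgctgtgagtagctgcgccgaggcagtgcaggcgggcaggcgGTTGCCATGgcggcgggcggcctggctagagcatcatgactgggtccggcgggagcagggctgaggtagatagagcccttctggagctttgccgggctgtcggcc
Glis3 first intron, chr19:28678141-28678340, minus strand: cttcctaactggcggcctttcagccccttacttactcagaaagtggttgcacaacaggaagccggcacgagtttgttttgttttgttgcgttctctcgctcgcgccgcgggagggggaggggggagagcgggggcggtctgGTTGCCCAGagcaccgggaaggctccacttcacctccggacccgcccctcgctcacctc
The Pkd1 peak, 0.707 kb into the gene, had heights of 1.97 and 2.53, and its match overlapped a footprint in replicate 2 only. The Glis3 peak, 1.84 kb into the gene, had 2.97 and 3.34, and its match overlapped no footprint, with one within 10 bp in replicate 2 only. That Glis3 peak also covers the start of the noncoding gene D930032P07Rik. In neither gene did a footprint overlap the match in both libraries, as one did at Ift88.

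Over whole loci, each the gene body with 10 kb on either side, 4 of the 8 genes had the RFX motif in a peak of either library (Pkhd1, Ift88, Pkd1 and Glis3), against 20.7% of all protein-coding genes. The 8 genes are long, with a median of 123.0 kb against 17.4 kb, and a longer locus holds more peaks to search. Counted per peak, the difference went the other way. Among peaks with a midpoint more than 1 kb from every start, searched over 200 bp, 0 of 114 in the 8 loci held the motif in replicate 1. In replicate 2 it was 2 of 178. The shares over all such peaks were 2.74% and 2.87%. That count leaves out peaks nearer to a start, such as those at Ift88 and Pkd1, and no test was run on it. The Pkhd1 match lay at the edge of a peak at exon 36, of height 0.492 and in replicate 2 only, and overlapped no footprint.

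The loci also differed widely in how densely accessible sites were packed. Glis2 was the densest of the 8 and Pkhd1 the sparsest, and their counts of peaks per kb differed by over 10 times. The median over the 8 genes was 0.124 peaks per kb (mean of the libraries), against 0.102 over all protein-coding genes. With the stricter deposited peak list the median over the 8 genes was 0.0749, and the median over all genes was not computed with that list. Glis2 had 18 and 29 peaks in 50.2 kb, or 0.468 per kb, at percentile 98.6 of all genes. Pkd2 had 17 and 19 peaks in 66.4 kb, 0.271 per kb, at percentile 89.3. Pkd1, over a locus of almost the same length (66.7 kb), had 5 and 10 peaks, 0.112 per kb, at percentile 53.8. The partners thus ranked oppositely in promoter height and in peaks per kb.

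The large genes split likewise. Bicc1 had 27 and 44 peaks in 256.9 kb (0.138 per kb), and Glis3 48 and 71 peaks in 441.2 kb (0.135 per kb), at percentiles 87.1 and 86.2 among genes of their own length decile. Pkhd1 had 13 and 18 peaks in 580.3 kb (0.0267 per kb), and Invs 4 and 7 in 172.2 kb (0.0319 per kb), at percentiles 19.0 and 23.9 of the same decile. Ift88 had 6 and 10 peaks in 113.9 kb (0.0703 per kb), at percentile 36.3 of its decile. By the mean of the libraries, the Bicc1 and Glis3 loci were therefore dense for their length and those of Pkhd1 and Invs sparse.

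**Figure D3:**
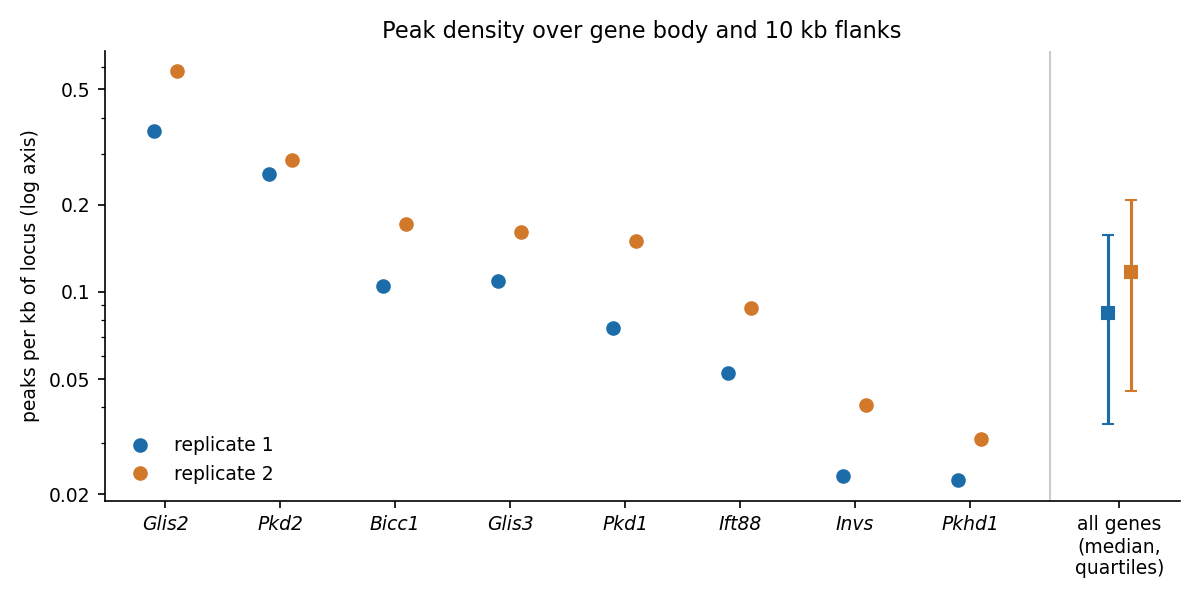
Peaks per kb (log axis) over the gene body and 10 kb on either side for the 8 genes in replicate 1 (blue) and replicate 2 (orange), with the median and quartiles of all 21938 protein-coding genes at the right. Glis2 and Pkd2 lie above the upper quartile in both libraries, and Invs and Pkhd1 below the lower quartile.

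Footprints followed a like order. Per kb of locus, Glis2 had 1.10 and 2.25 footprints and Pkd2 0.437 and 0.844, while Invs had 0.0697 and 0.145 and Pkhd1 0.0327 and 0.0724. The median over the 8 genes was 0.298 per kb (mean of the libraries), against 0.270 over all genes.

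Nearly all sites found in replicate 1 recurred. Of its 138 peaks over the 8 loci, 130 (94.2%, exact 95% binomial interval 88.9 to 97.5, counting error only) overlapped a peak of replicate 2, against 87.6% of all its peaks. In the other direction, 131 of 208 replicate 2 peaks had a partner (63.0%, interval 56.0 to 69.6), and 62.2% of all replicate 2 peaks did. The peaks without a partner were low, with median heights of 0.44 in replicate 1 and 0.482 in replicate 2, against 0.962 and 1.18 for those with one. Across the 130 pairs, which share their libraries and in part their locus, Spearman's rho of the heights was 0.919, and 120 pairs lay within 2-fold. All peaks of replicate 1 recurred at Pkd1 (5 of 5), Invs (4 of 4), Ift88 (6 of 6) and Glis2 (18 of 18).

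**Figure D4:**
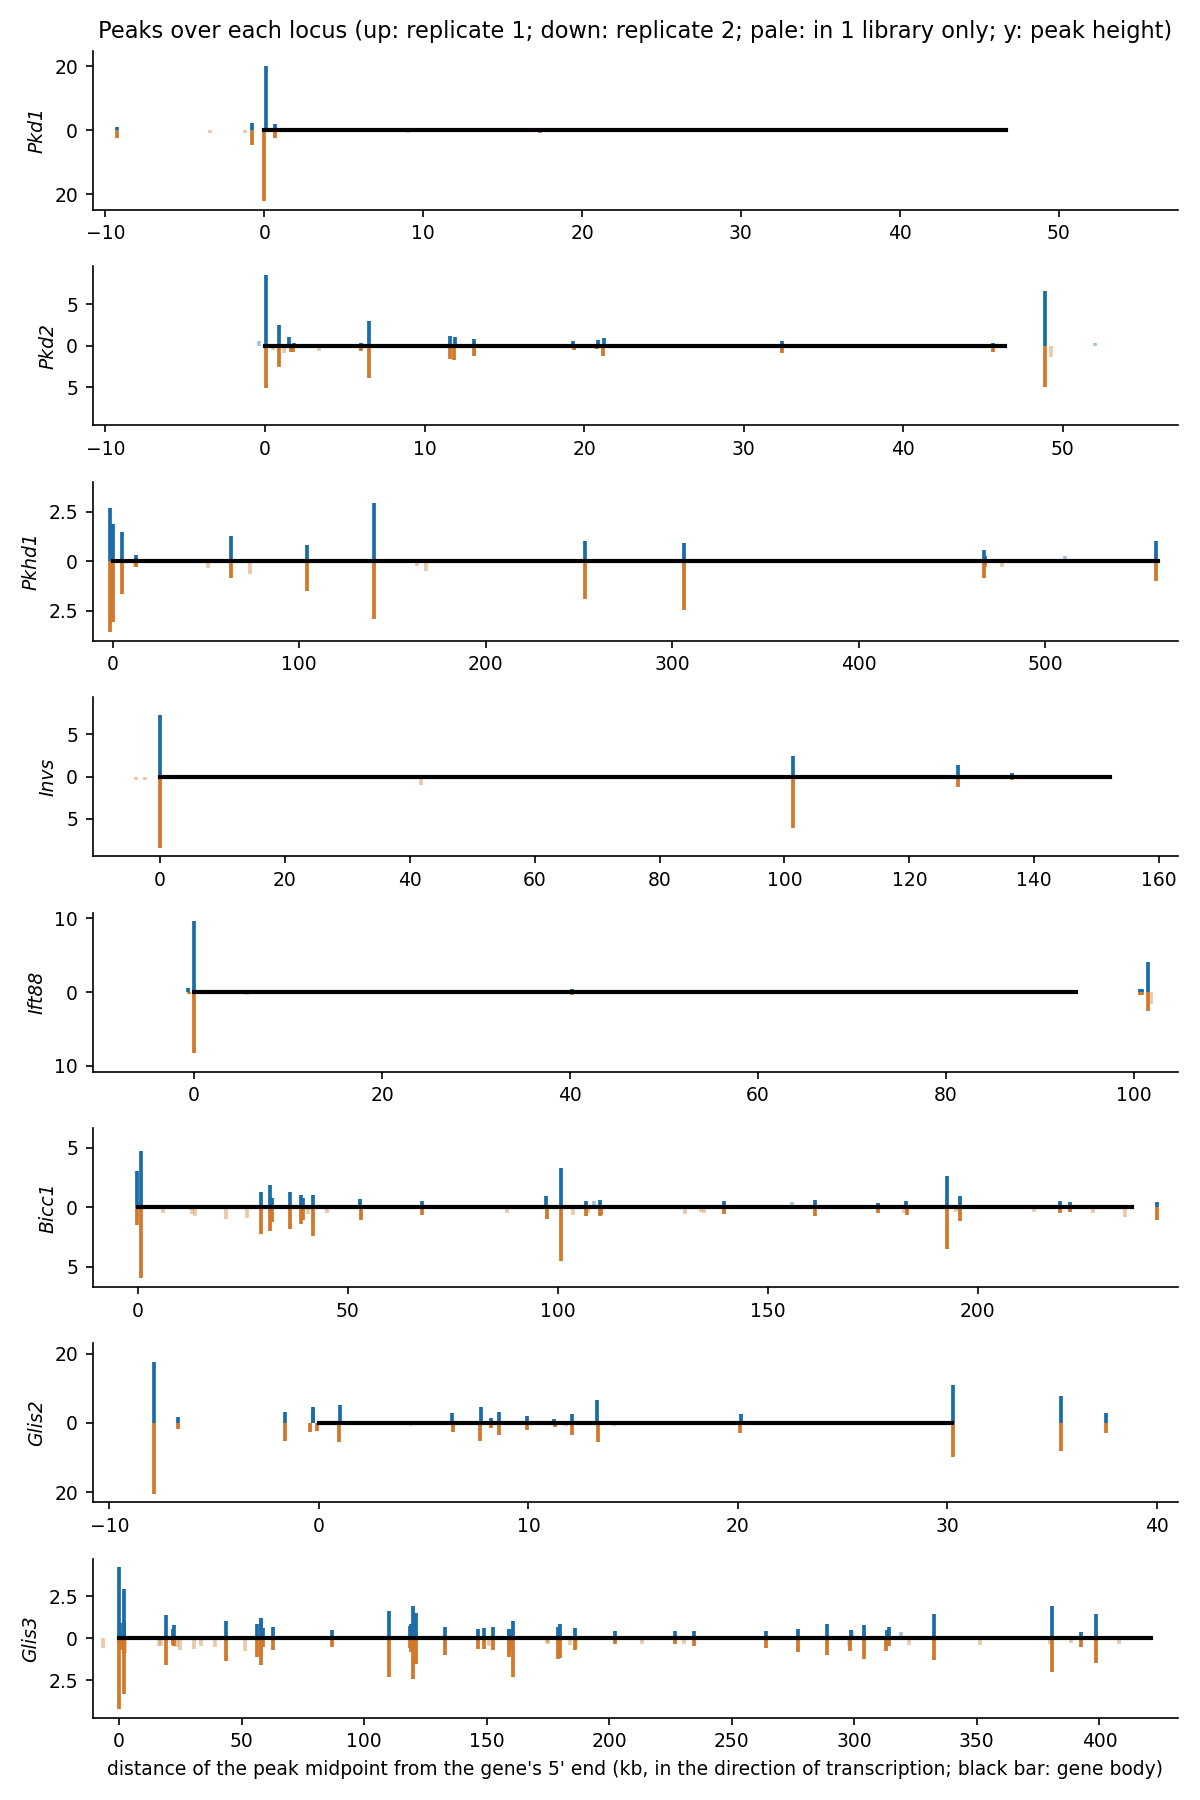
Peak heights (authors' signal, own scale for each gene) by distance from the start of each gene (kb, in the direction of transcription), upward for replicate 1 and downward for replicate 2, with peaks of 1 library only drawn pale and the gene body as a black bar. Pkd1 and Ift88 have a high peak at the start and few others inside the gene, Glis2 has its highest peak 7.88 kb upstream, and Bicc1 and Glis3 have peaks along most of the gene.

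The tallest site of the Glis2 locus, and the second of all 8 loci after the Pkd1 promoter, was not at a gene start. It lay 7.88 kb upstream (chromosome 16, 4586701 to 4586960 in replicate 1) and had heights of 17.5 and 20.5, against 4.67 and 2.71 at the Glis2 promoter. Among all peaks it stood at percentiles 98.7 and 99.4, and no annotated start lay nearer to it than that of Glis2, in the basic or the comprehensive gene set. Each library had 7 footprints in it. The part common to both libraries is shown with the 87 bases in footprints of both in capitals (GRCm38.p6).
Glis2 upstream peak, chr16:4586701-4586940, plus strand: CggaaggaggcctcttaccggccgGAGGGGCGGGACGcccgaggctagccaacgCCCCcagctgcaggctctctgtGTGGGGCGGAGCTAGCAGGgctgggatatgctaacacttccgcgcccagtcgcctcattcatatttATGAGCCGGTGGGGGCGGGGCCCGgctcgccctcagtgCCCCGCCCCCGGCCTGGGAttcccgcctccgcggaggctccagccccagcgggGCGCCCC
A pair of matches of GGGGCGGGG, the GC box bound by SP and KLF factors, lay inside these capitals (chromosome 16, 4586854 to 4586862 and, on the other strand, 4586881 to 4586889), and both overlapped footprints in both libraries. The motif was in 1.87% and 1.75% of distal peaks, those with a midpoint more than 1 kb from every start, over 200 bp at the midpoint, and in 15.8% of RefSeq promoters.

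The rest of the Glis2 locus was filled mainly from the first intron, which held 9 of 18 and 19 of 29 peaks. The highest of them that was distal, 13.3 kb into the gene, had 6.63 and 5.48, and lay 616 bp from a Glis2 start in the comprehensive set. Another, 7.72 kb in, had 4.69 and 5.30 and held a match of the HNF4 motif CAAAGTCCA, the site of a tubule and liver nuclear receptor, in a footprint of both libraries. Downstream, a peak of 11.0 and 9.81 lay on the start of Pam16, and one of 7.67 and 8.20 lay 465 bp from a comprehensive start of Coro7. Those peaks stand in the Glis2 window but at starts of other genes.

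At Bicc1 the tallest peak was also not the promoter. It lay in the first intron, 0.659 kb into the gene (chromosome 10, 71158941 to 71159140 in replicate 1), and had 4.71 and 5.96, against 3.02 and 1.46 at the promoter. With a promoter window of 1000 bp it would count as the promoter peak, and the mean height of Bicc1 would be 5.33 instead of 2.24. It held a GC box match in a footprint of both libraries. Deeper in the gene, a peak in intron 2, 100.7 kb from the start, had 3.32 and 4.52, and one in intron 3, 192.6 kb from the start, had 2.66 and 3.50. Introns held 25 of 27 and 40 of 44 Bicc1 peaks, of which 11 and 18 were in the first intron.

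Glis3 had many low intronic sites and none above its promoter. Introns held 46 of its 48 and 67 of its 71 peaks, with median heights over the locus of 0.688 and 0.651. The highest distal ones shared by the libraries, by the mean of both, were in intron 2, 120.0 kb from the start (1.94 and 2.40), in intron 7 at 380.7 kb (1.93 and 2.03) and in intron 2 at 110.0 kb (1.65 and 2.28). By the heights of replicate 2, a distal peak in intron 4 at 160.6 kb (1.06 and 2.31) ranked second. All 4 were lower than the promoter in both libraries.

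At Pkhd1 the promoter was again not the highest site. A peak 1.5 kb upstream (chromosome 1, 20619461 to 20619660 in replicate 1) had 2.71 and 3.59, and one in intron 35, 140.1 kb into the gene, had 2.95 and 2.94, against 1.89 and 3.09 at the promoter. The upstream peak was higher than the promoter in each library, while the intron 35 peak was higher in replicate 1 and lower in replicate 2. A peak in intron 49 at 306.4 kb had 0.94 and 2.45. Beyond it lay the longest stretch without a peak in either library among the 8 genes, 160.7 kb or 28.7% of Pkhd1.

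Pkd2 had its highest distal site in the first intron, 6.5 kb from the start (chromosome 5, 104465861 to 104466040 in replicate 1), with 2.95 and 3.87. A pair of neighbouring peaks in intron 2, 11.6 and 11.9 kb from the start, had 1.17 and 1.62 at the nearer and 1.09 and 1.69 at the farther. Its downstream flank held a peak of 6.55 and 4.97 at the start of BC005561, which belongs to that gene by position. Inside Pkd2, all but 2 peaks of each library lay within 21.2 kb of the start, and a stretch of 13.1 kb (28.2% of the gene) toward its end held none.

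Pkd1 had few sites beside its promoter. Peaks lay 0.753 kb upstream (2.26 and 4.45) and 9.24 kb upstream (0.932 and 2.55), and one covered part of exon 7 (0.838 and 0.999). The peak 0.753 kb upstream held a match of the AP-1 motif TGANTCA within 10 bp of a footprint in both libraries, without overlap. From exon 7 on, 23.8 kb or 50.9% of the gene had no peak in either library. Ift88 had a single distal site shared by the libraries, in intron 14 (0.35 and 0.363), and its downstream peaks, up to 4.04 and 2.59, lay near the start of Il17d. A stretch of 42.6 kb, or 45.4% of Ift88, was without a peak.

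Invs had 3 shared sites inside the gene. The highest, in intron 3 at 101.4 kb from the start (chromosome 4, 48381061 to 48381220 in replicate 1), had 2.45 and 6.07 and lay 1047 bp from a start of Invs in the comprehensive set. The others were in intron 11 (1.36 and 1.23) and exon 13 (0.444 and 0.373). Only the first differed by more than 2-fold between the libraries.

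Related genes were set beside the 8, as lists of the same diseases and organelle. All 74 other genes listed under mainly dominant cystic and tubulointerstitial disease, nephronophthisis, intraflagellar transport and the Bardet-Biedl complex had a promoter peak in both libraries. The share over all protein-coding genes was 65.3%. The median heights of the 74 were 11.3 and 12.9, against 5.98 and 4.63 for the 8 genes. Over the 14329 genes with a promoter peak in both libraries the medians were 7.49 and 7.01. Of the 74, 60 and 67 stood above the median of the 8, as did most of the 14329. List by list, the medians were 9.74 and 8.05 over 17 genes of mainly dominant disease and 12.2 and 13.4 over 21 nephronophthisis genes. They were 11.8 and 13.2 over 26 intraflagellar transport genes and 11.2 and 13.2 over 13 Bardet-Biedl genes. Ift88 was thus below the median of its own transport family in both libraries. No test was run between the lists.

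**Figure D5:**
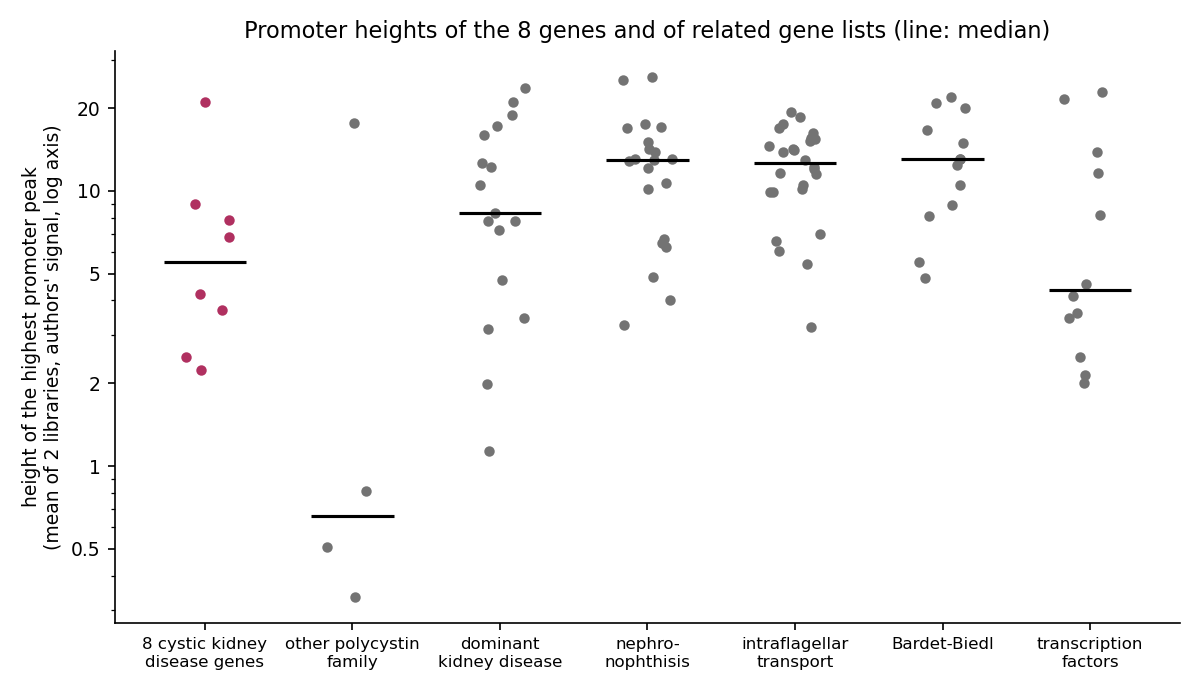
Height of the highest promoter peak (mean of both libraries, authors' signal, log axis) of the 8 cystic disease genes (left, red) and of the genes of 6 related lists with a promoter peak in both libraries (grey), with the median of each list as a line. The other polycystin family members lie low except for Pkd2l2, and the nephronophthisis, intraflagellar transport and Bardet-Biedl genes lie mostly above the median of the 8.

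Among the highest of these promoters were those of Nphp4 (22.6 and 28.0), of Sec63 (25.3 and 21.9), Prkcsh (18.0 and 24.1) and Dnajb11 (18.5 and 19.3), which act in protein folding and transport in the endoplasmic reticulum, of Bbs2 (21.9 and 22.1), Bbip1 (16.7 and 25.2) and Mkks (19.0 and 21.1), and of the transport genes Ift57 (16.7 and 22.1), Ift140 (17.8 and 19.5) and Wdr19 (15.4 and 19.6). Pkd1, at 19.9 and 22.1, was in their range. Several of them share the promoter with a neighbour, such as Prkcsh with Ccdc151 and Ift140 with Cramp1l. Anks6, whose protein joins inversin in the same ciliary compartment, had 5.22 and 2.85, below the 7.29 and 8.38 of Invs in each library.

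The other genes of the polycystin and fibrocystin families had low promoter peaks or none, apart from Pkd2l2. Of these 7 genes, 4 had a promoter peak in both libraries, against 65.3% of all protein-coding genes. Pkd1l2, Pkd1l3 and Pkd2l1 had none in either. Pkd2l2 had 17.4 and 18.0, with its highest peak 892 bp from the start of the gene, at another of its annotated starts. When internal starts were left out, 2 of the 7 had a promoter peak in both libraries. The share over all protein-coding genes was not computed under that rule. Pkdrej had 1.14 and 0.487, Pkhd1l1 0.419 and 0.601, and Pkd1l1 0.367 and 0.303. The highest peak of Pkd1l1 lay 22920 bp from the start of the gene, at an internal start. Pkdrej, Pkhd1l1 and Pkd1l1 were all below Pkd1, Pkd2 and Pkhd1 in each library.

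Of 13 transcription factor genes linked to cilia or cysts, 12 had a promoter peak in both libraries, against 65.3% of all protein-coding genes. Rfx4 had none in either. The highest were Rfx2 (24.0 and 21.7), Rfx1 (19.3 and 23.8) and Foxj1 (14.6 and 13.2), the master gene of motile cilia. The list median was 5.01 and 3.86, close to the values of Glis2 and Glis3, while the third member of their family, Glis1, had 5.20 and 3.10.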

How the data were processed

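The files of each library, on mm10 per the labels, held peaks, footprints and false discovery rates along the genome. The aligner and callers were not given in the sources used here. In the peak lists the deposited signal is the height of each peak, and peaks came from 1 library each, not from pooled samples. Each footprint carries the same deposited q-value of 0.01, read as a threshold, and the deposited q-values along the genome were listed over 36.1 and 50.8 Mb. CAST/EiJ variants could lower heights where reads failed to map to mm10. How the alignment treated them is not known.

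The longer peak list was used, with GENCODE M21 basic gene models. Peaks within 500 bp of a start were promoter peaks, a locus was the gene with 10 kb on either side, and overlap meant at least 1 bp. Intron numbers are those of the transcript with the most exons. Percentiles of promoter heights are, for each library, among all protein-coding genes with a promoter peak in that library, a wider set than the 14329 with one in both. Those of peaks per kb are among all genes or the genes of 1 of 10 length classes. Motifs were searched on both strands in GRCm38.p6, and 6 of the 8 genes matched the RefSeq promoter table. Members, lists and motifs were chosen with earlier results of these data known. The text names all 8 genes, the list genes without a promoter peak in both libraries, the 3 highest of each list and, for comparison, Anks6 and Glis1, chosen after their values were seen; a few results are not reported here. Depth is unknown, and n = 2 limits every SD. The overlap lookup and motif search were tested on simulated data. Python 3.11.15, numpy 2.4.6, pandas 2.3.3, scipy 1.17.1, pysam 0.24.0 and samtools 1.23.1 were used. Alternatives were a stricter deposited list, other promoter windows and flanks, higher peaks only, and each library alone.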

Additional observations from a re-analysis of the deposited data

How the results depend on the processing

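The counts of 8 genes with a promoter peak and of 8 with a footprint in one did not change under any of the 6 alternatives tried for each. The share of replicate 1 peaks found again was 79.0% with 50% reciprocal overlap and 98.6% among the upper 50% of peaks by height, against 94.2%. The median of 0.124 peaks per kb fell to 0.0749 with the stricter list and to 0.0597 with the upper 50% of peaks, because fewer peaks were counted, and was 0.0901 and 0.155 with 1 library each. Of the polycystin family, 4 genes had a promoter peak, but 2 with only the 5' end of each gene and 1 with the upper 50% of peaks. Shares over all genes were not computed under these rules. Of 40 alternative promoter heights of single genes, 2 moved by more than the replicate SD: with a promoter window of 1000 bp Bicc1 had a mean of 5.33 instead of 2.24 and Glis2 5.29 instead of 3.69. Locus counts of single genes moved by over 1.5 times in 16 of 48 alternatives. No paired analysis was possible because both libraries belong to 1 group. Read depth is unknown, so a missing peak says only that none was called.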

Other observations

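Motifs beside RFX were likewise counted over 200 bp at the midpoint of distal peaks, and each had few matches in the 8 loci. The E-box CACGTG was in 10 of 114 (8.77%) and 11 of 178 (6.18%) distal peaks of the 8 loci, against 4.75% and 4.82% of all distal peaks. The TEAD motif CATTCCA, bound by the partners of YAP, was in 9 (7.89%) and 13 (7.30%), against 4.64% and 4.76%. The HNF4 motif was in 2 (1.75%) and 6 (3.37%), against 1.08% in each library. The AP-1 motif was in 6 (5.26%) and 8 (4.49%), against 7.40% and 7.59%, and the motif GACCNCCCA of the GLI and GLIS factors was in none, against 0.553% and 0.521%. No test was run on these counts.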
